A study of Homo sapiens with 8 samples.

Results

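Interferon-stimulated genes, 44 named genes that include the Schlafen gene SLFN5, were followed in CAKI1 cells, an established human renal cell carcinoma line, with and without iron-loaded (holo) lipocalin-2. The 44 genes were taken by symbol from the deposited table of 16782 genes, and 43 of them were matched; XAF1 was not analysed here. All 43 were above the filter of 1 CPM (a read count scaled to the total of its library) in at least 2 samples, as were 15593 genes in all. All 8 samples were CAKI1 cells grown in high-glucose medium with serum and antibiotics, then deprived of serum for 24 h before stimulation. The 4 control samples received no lipocalin-2 and the 4 hLcn-2 samples received 5 µg/ml for 24 h, and no other agent or allele is named in the labels. Samples of each group carry the numbers 1 to 4, and a control and an hLcn-2 sample of the same number are called a pair here. The labels do not say whether these were separate cultures, so p-values measure the spread between these samples, which may be technical, and 1 cell line limits what the samples stand for.

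Interferons are secreted proteins, and cells release those of type I and type III when they detect viral or misplaced nucleic acid. Type I and type III interferons act through receptors that carry the kinases JAK1 and TYK2, and the resulting complex, which includes IRF9, binds the interferon-stimulated response element (ISRE) in promoters. Interferon gamma acts through a different element, the gamma-activated site (GAS). The induced genes block viral entry, translation and replication, amplify the sensing of RNA, or limit the response, and many tumor cells keep a part of this programme on without added interferon.

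Most of the promoters that could be read hold the ISRE core. RefSeq promoter windows (GRCh38.p14, 250 bases before to 50 bases after each annotated start) were matched by symbol for 36 of the 44 genes; SLFN5, IFIT2, OAS2, OASL, IRF7, TRIM22, USP18 and GBP2 had no entry. The ISRE core searched was TTTC, any 2 bases, then TTTC, on either strand, and matches that overlap were each counted. It was found in 23 of the 36 genes (63.9%) and in 4.38% of all 27305 genes of the table. The GAS core TTCNNNGAA, which reads the same on both strands, was found in 11 of the 36 (30.6%) and in 9.38% of all genes. The windows below are those of members named in the results: IFIT1 with its tandem ISRE, the neighbouring GBP1 and GBP3, the head-to-head pair PARP9 and DTX3L, TRIM21, and IRF1, which had a GAS core and no ISRE core. They are written 5′ to 3′ on the strand of the gene, with the ISRE core in capitals, or the GAS core for IRF1. The window of GBP3 also holds a GAS core, centred at -11 from the annotated start, which is left in lower case.
IFIT1, chr10:89392487-89392549, plus strand: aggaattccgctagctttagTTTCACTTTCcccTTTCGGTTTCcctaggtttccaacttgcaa
TRIM21, chr11:4393653-4393705, minus strand: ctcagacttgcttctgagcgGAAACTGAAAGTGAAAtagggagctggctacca
GBP1, chr1:89065306-89065355, minus strand: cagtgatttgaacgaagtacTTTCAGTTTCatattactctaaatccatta
GBP3, chr1:89022835-89022884, minus strand: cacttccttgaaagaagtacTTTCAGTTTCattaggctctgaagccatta
PARP9, chr3:122564312-122564361, minus strand: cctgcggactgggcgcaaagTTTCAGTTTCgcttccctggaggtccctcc
DTX3L, chr3:122564312-122564361, plus strand: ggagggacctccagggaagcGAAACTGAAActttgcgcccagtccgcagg
IRF1, chr5:132490869-132490917, minus strand: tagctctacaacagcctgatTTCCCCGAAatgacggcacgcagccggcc
The cores of IFIT1 were centred at -111 and -98 from the annotated start, and those of TRIM21, which overlap, at 22 and 28, downstream of it. The windows of GBP1 and GBP3 were identical at 39 of 50 bases, and the ISRE core stood at -122 in GBP1 and at 7 in GBP3. PARP9 and DTX3L are read away from each other from 1 shared stretch, so that the same 50 bases carry the single ISRE core of both. A match of this kind is a description of letters and not a measured binding site.

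**Figure D1:**
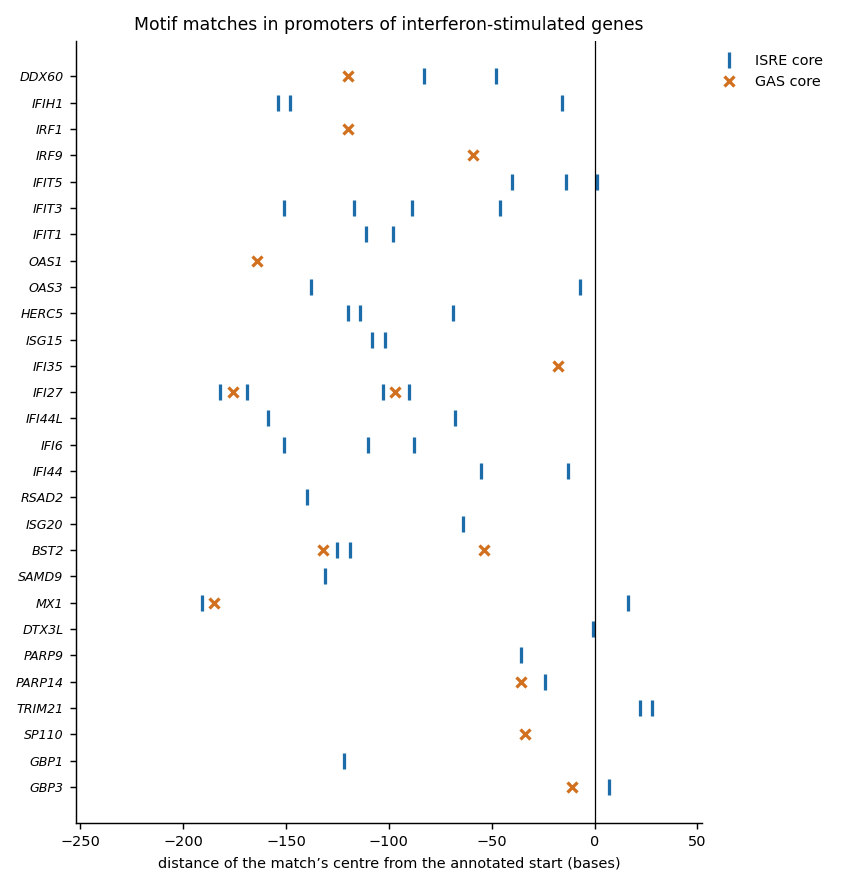
Distance in bases of the centre of each ISRE core (bars) and GAS core (crosses) from the annotated start, for the 28 interferon-stimulated genes with at least 1 match. Genes are in rows, a gene with several annotated starts shows the matches of each, and most matches lie upstream of the start at 0.

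RNA was measured by QuantSeq, which reads 1 tag near the 3′ end of each transcript, so values are not divided by transcript length. The deposited unit is a normalized count, the reads of a gene after collapse of molecular identifiers on the scale of CPM, for which the authors had corrected each library size. The libraries held 1501563 to 13953090 reads, a 9.29-fold range, and 3 reads were worth 0.211 to 1.98 normalized counts. Control 4 was the shallowest sample and hLcn-2 3 the next. Of 10 renal marker genes 7 were listed, PAX8 among them at 201 to 245 normalized counts, whereas no row was matched for PTPRC and CD3E of leukocytes or for any of the 3 endothelial markers. The 3 leukocyte markers that were listed had sums between 3.52 and 5.82 normalized counts in control samples and between 3.26 and 4.94 in hLcn-2 samples. Sums of the 2 listed fibroblast markers lay between 3.7 and 6.58 and between 2.47 and 5.78. The last exons of IFI6, IRF9, DDX58, SP110 and SAMHD1 overlap exons of other annotated genes. The overlap is on the same strand for IFI6 and DDX58, on the opposite strand for SP110 and SAMHD1 and on both for IRF9. Whether the counting used strand is not given in the sources used here.

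The interferon-stimulated genes had a median change near 0 between control and hLcn-2 samples, and SLFN5 was the 1 member whose groups did not overlap. The values of the 43 genes summed to 2429, 2346, 2595 and 2491 in the control samples (1 to 4) and to 2722, 2447, 2309 and 2535 in the hLcn-2 samples, so the groups overlapped. The median log2 fold change of the 43 genes was -0.021, with 17 above and 26 below 0, beside a median of 0.001 over all genes tested, with 7824 above and 7769 below 0. Changes are on the scale of log2(normalized count + 1), hLcn-2 minus control, which understates the change of genes with low counts. For the 36 genes with a mean of at least 10, the 95% intervals of the log2 fold change lay between -0.99 and 1.30, and 35 of them lay within 1 of 0. In bulk RNA, a change in every cell and a change in a share of the cells cannot be told apart.

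**Figure D2:**
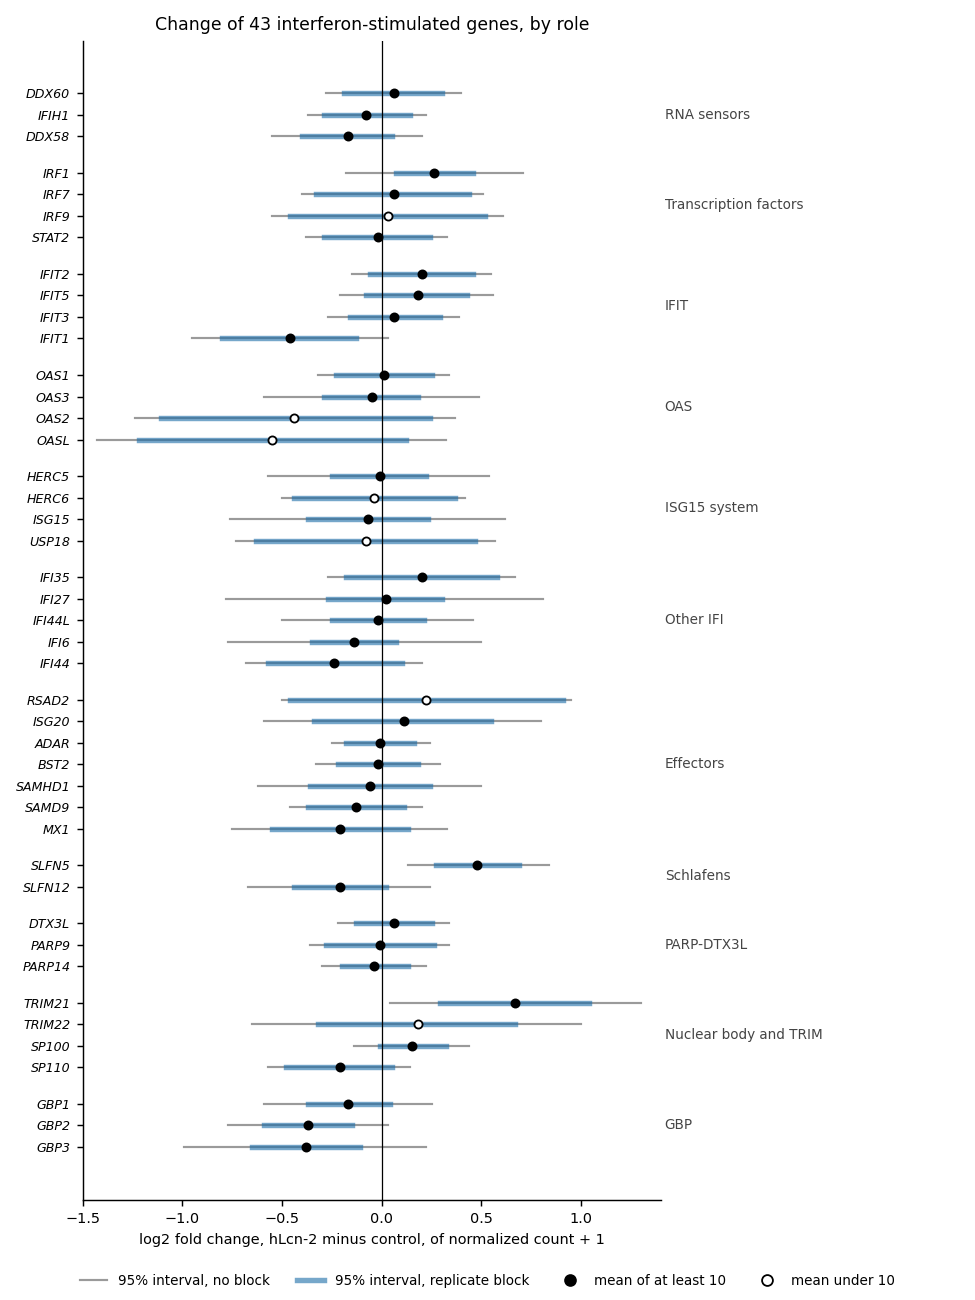
Log2 fold change of normalized count + 1, hLcn-2 minus control, of 43 interferon-stimulated genes grouped by role, with 95% intervals from limma without (thin gray) and with (thick blue) the replicate number as a block. Filled points have a mean of at least 10, SLFN5 and TRIM21 are the genes whose interval without the block stays above 0, and the interval of each other gene is drawn beside them.

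None of the 43 genes passed an adjusted p of 0.05 in limma without the block, as was the case for all genes tested (0.0%), and 2 of 43 (4.65%), SLFN5 and TRIM21, had an unadjusted p under 0.05, beside 2.28% of all genes. Without hLcn-2 1 this count was 6 (14%, beside 2.32% of all genes), with IFIT1, IFI44, OAS2 and GBP2 added, all lower in hLcn-2. Of these, OAS2 rests on few reads. For IFIT1, IFI44, OAS2 and GBP2 alike, hLcn-2 1 was the highest hLcn-2 sample, so leaving it out lowers their hLcn-2 mean. The larger count restates the high values of that sample and is not separate evidence of lower members. Without control 2 the count was 4 (9.3%, beside 2.92%), with IFIT1 and GBP2 added. It was 1, SLFN5, without control 4 (beside 1.49%), hLcn-2 2 (beside 2.08%) or hLcn-2 3 (beside 2.36%). Samples of the same number deviated together, and a fit with the number as a block was therefore made. With the block, limma called 0 of 43 at an adjusted p of 0.05 (0.282% of all genes), and 6 of 43 (14%) had an unadjusted p under 0.05, beside 12.2% of all genes. Of these 6, SLFN5, TRIM21 and IRF1 were higher (3 of 43, beside 6.65% of all genes) and GBP2, GBP3 and IFIT1 were lower (3 of 43, beside 5.53%). These shares stood close to those of all genes. The edgeR quasi-likelihood test with the block, on the recovered reads, called 1 of 43 (2.33%, beside 1.49% of all genes) and DESeq2 with the block 1 of the 37 to which it gave an adjusted p (2.7%, beside 1.87%). SLFN5 was that gene in both.

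SLFN5 is a member of the Schlafen family, a set of nuclear and cytoplasmic proteins that interferon induces and that act on transcription, translation or replication. It lies at chr17:35243071-35273655 (GRCh38, plus strand), and its last exon, where 3′ tags are expected, overlaps no exon of another annotated gene. SLFN5 was at 184, 222, 206 and 140.3 normalized counts in controls 1 to 4 and at 259, 311, 229 and 248 in hLcn-2 samples 1 to 4. Every hLcn-2 sample stood above every control sample, although control 2 and hLcn-2 3 were only narrowly apart. The group means were 188 ± 35.7 and 262 ± 35.3 (SD, n = 4 each), a log2 fold change of 0.48 ± 0.16 (SE) or 1.39-fold, with a 95% interval of 0.13 to 0.84. The exact permutation test over the 70 regroupings gave p = 0.0286 (two-sided), the smallest it allows. Groups that do not overlap always give this value, so it restates the lack of overlap. The regroupings also take no account of the replicate numbers. Adjusted p was 1 in limma without the block, 0.0569 in limma with it, 0.0103 in edgeR with it and 0.00227 in DESeq2 with it. In limma with the block, the adjusted p of SLFN5 was 0.443 with no intensity trend and 0.104 with a pseudocount of 0.1. Neither edgeR nor DESeq2 without the block called SLFN5. Within pairs the log2 difference was 0.49, 0.48, 0.15 and 0.82, highest in the pair with the shallowest control. Without control 4 the log2 fold change was 0.35. SLFN5 was the 1 gene of 43 whose groups did not overlap with hLcn-2 higher (0.891% of all genes), and none of 43 was without overlap in the other direction (0.988%). The study had already listed SLFN5 from this experiment, and the legend of its heat map of changed genes gives n = 3. Which of the 8 samples entered its list is not given in the sources used here. The place of SLFN5 among the members is therefore not independent evidence of its direction.

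The other Schlafen genes lie beside SLFN5 on chromosome 17 and had means on both sides of their controls. SLFN12, at chr17:35410922-35433283 on the minus strand, encodes an RNase-like protein that sensitises cells to some drugs, and was at 44.1, 42.9, 36.3 and 63.2 in controls 1 to 4 and at 44.8, 39.2, 28.1 and 48.3 in hLcn-2 samples. Its groups overlapped, and its log2 fold change was -0.21 ± 0.21 (SE). SLFN11, which blocks stalled replication forks, lies between them at chr17:35350305-35373701 and had means of 30.5 ± 2.80 and 31.2 ± 4.25 (SD, n = 4 each; log2 fold change 0.03). SLFN13 had means of 27.2 and 22.7 (-0.27) and SLFN12L of 3.29 and 2.44 (-0.27), both minus-strand neighbours of SLFN12. The Schlafen genes are related in sequence, and how the authors' counting treated tags that match more than 1 of them is not given in the sources used here. The difference between SLFN5 and its neighbours was not tested.

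**Figure D3:**
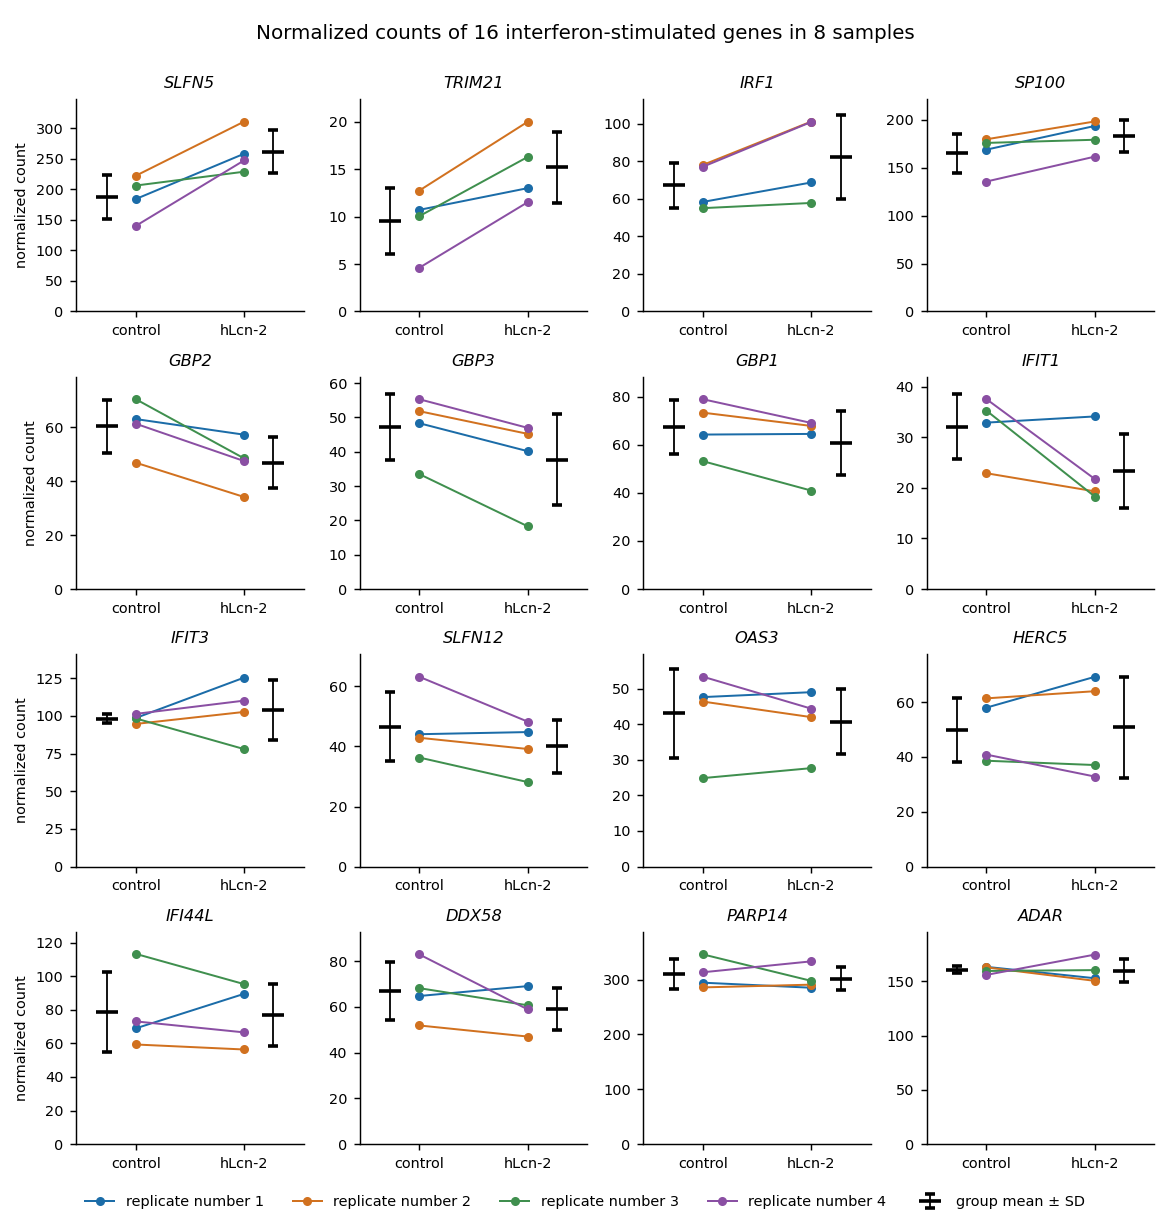
Normalized counts (vertical axes, from 0) of the 16 members named by rule, in the 4 control and 4 hLcn-2 samples. Lines join samples of the same replicate number, and black marks are group means ± SD (n = 4). All 4 lines go up for SLFN5, TRIM21, IRF1 and SP100 and down for GBP2 and GBP3, while IFIT3, HERC5 and PARP14 have lines in both directions.

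Among the transcription factors, IRF1, which is itself induced by interferon gamma and drives antigen presentation and GBP genes, was higher in hLcn-2 in 4 of 4 pairs. IRF1, at chr5:132440440-132508719 on the minus strand, was at 58.3, 78, 55 and 77 in controls 1 to 4 and at 68.7, 101, 57.8 and 101 in hLcn-2 samples 1 to 4. The samples of numbers 2 and 4 were high in both groups and those of numbers 1 and 3 low in both, so that the groups overlapped. Means were 67.1 ± 12.1 and 82.1 ± 22.3 (SD, n = 4 each), and the log2 fold change was 0.26 with an SE of 0.20 without the block and 0.092 with it. The unadjusted p was 0.221 without and 0.0132 with the block in limma, and the adjusted p with the block was 0.265. STAT2, which binds the ISRE in a complex with IRF9, had means of 48.0 and 47.7. IRF7, the factor that amplifies type I interferon, had means of 10.7 and 11.2, and IRF9 stood at 1.78 to 4.44, near the worth of 3 reads in the shallow samples. The log2 fold changes of these 3 factors lay between -0.02 and 0.06.

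The RNA sensors are helicases that recognise viral RNA and signal to interferon genes. DDX58 (RIGI in GENCODE 44), the sensor of short RNA with a 5′ triphosphate, was at 64.8, 51.9, 68.2 and 83 in controls 1 to 4 and at 69.1, 47, 60.7 and 58.9 in hLcn-2 samples. Its groups overlapped and its log2 fold change was -0.17 ± 0.17 (SE). IFIH1, which encodes the long double-stranded RNA sensor MDA5, had means of 43.1 and 40.7 and was lower in 4 of 4 pairs, with the largest log2 difference at -0.13. DDX60, a related helicase, had means of 33.8 and 35.0.

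The 4 IFIT genes, whose proteins bind foreign RNA ends and hold back its translation, form 1 cluster on chromosome 10 and had log2 fold changes of either sign. IFIT1, at chr10:89392546-89406487, was at 32.9, 22.9, 35.2 and 37.5 in controls 1 to 4 and at 34.1, 19.3, 18.3 and 21.7 in hLcn-2 samples 1 to 4. The hLcn-2 samples 2 to 4 stood below all controls, whereas hLcn-2 1 stood within the control range. Means were 32.1 ± 6.46 and 23.4 ± 7.32 (SD, n = 4 each), a log2 fold change of -0.46 ± 0.23 (SE) with an unadjusted p of 0.0619 without and 0.0108 with the block in limma (adjusted p with the block 0.251). IFIT3, the partner that stabilises IFIT1, was at 98.7, 94.7, 98.4 and 101 in controls, a tight group, and at 126, 103, 78 and 110.2 in hLcn-2 samples, on both sides of it. Its log2 fold change was 0.06 ± 0.15 (SE). IFIT2 had means of 28.1 and 32.7 (log2 fold change 0.20) and IFIT5 of 27.9 and 31.8 (0.18), and IFIT5 was higher in 4 of 4 pairs by 0.04 to 0.44.

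OAS1, OAS2 and OAS3 make the short RNA-like messenger that switches on RNase L, and OASL is listed with them by family. With all 8 samples, none of the 4 had an unadjusted p under 0.05 in limma without or with the block. OAS3 was at 47.6, 46.4, 24.9 and 53.3 in controls 1 to 4 and at 49, 42, 27.6 and 44.4 in hLcn-2 samples, and both samples of number 3 were lowest in their group. OAS1 had means of 31.9 and 32.0, with a 95% interval of the log2 fold change from -0.32 to 0.34. OAS2 and OASL were low, at no more than 2.41 and 3.95 normalized counts, and were listed at 0 in hLcn-2 3, OAS2 also in hLcn-2 4. Their log2 fold changes of -0.44 and -0.55 rest on few reads.

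ISG15 is a ubiquitin-like modifier, HERC5 the ligase that attaches it, HERC6 a related ligase and USP18 the protease that removes it. The log2 fold changes of these 4 genes lay between -0.08 and -0.01. HERC5 was at 58, 61.4, 38.6 and 40.8 in controls 1 to 4 and at 69.2, 64, 37 and 32.8 in hLcn-2 samples, high in numbers 1 and 2 and low in numbers 3 and 4 of both groups. ISG15 was at 29 and 24.8 in the samples of number 4 and at 10.2 to 15.1 in all others. The direction of so small a change as that of HERC5 depended on the processing.

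Among the other IFI genes, IFI44L, of little-known antiviral function, was at 69, 59.3, 113 and 73.1 in controls 1 to 4 and at 89.5, 56.4, 95.3 and 66.5 in hLcn-2 samples, highest in number 3 of both groups. IFI27, a mitochondrial protein gene that is a sensitive blood marker of interferon, was at 154 and 101 in the samples of number 3 and at 40.7 and 46.1 in those of number 2. IFI6, which acts at mitochondria and the endoplasmic reticulum, was lowest in number 2 of both groups, at 41.1 and 36.3. Its last exon overlaps an exon of LINC02574, a long non-coding RNA gene on the same strand, so tags there may belong to either gene. IFI35 had means of 31.9 and 36.0 and IFI44 of 41.8 and 36.2. The log2 fold changes of the 5 IFI genes lay between -0.24 and 0.20.

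Of the genes grouped as effectors, 7 were measured here. With all 8 samples, none of the 7 had an unadjusted p under 0.05 in limma without or with the block. ADAR, which edits adenosine in double-stranded RNA and so keeps self RNA from the sensors, was at 164, 163, 159.7 and 156 in controls 1 to 4 and at 153, 151, 160.5 and 175 in hLcn-2 samples, with a 95% interval of the log2 fold change from -0.25 to 0.24. BST2, the tether that holds budding virions, had means of 101 and 101. MX1, a GTPase that traps viral capsids, had means of 48.0 ± 16.2 and 40.6 ± 10.7 (SD, n = 4 each). SAMD9, a restriction factor of poxviruses, had means of 33.0 and 30.2 and was lower in 4 of 4 pairs, and SAMHD1, which depletes deoxynucleotides, had means of 31.6 and 31.9. ISG20, an exonuclease, had means of 9.97 and 10.7, and RSAD2, which makes a chain-terminating nucleotide, was at most 1.87 normalized counts in any sample.

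PARP9, PARP14 and the ubiquitin ligase DTX3L lie in 1 region of chromosome 3, and PARP9 and DTX3L act as a complex. PARP14 was at 294, 286, 346 and 313 in controls 1 to 4 and at 285, 291, 298 and 333 in hLcn-2 samples, with overlapping groups. PARP9 had means of 73.1 and 73.6 and DTX3L of 159 and 166, and the log2 fold changes of the 3 genes lay between -0.04 and 0.06. Over the pairs PARP9 and DTX3L, which share the stretch of promoter printed above, differed by 0.52, -0.17, -0.34 and -0.05 and by 0.23, 0.20, -0.18 and -0.02.

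SP100 and SP110 encode proteins of nuclear bodies, which hold down viral genomes, and TRIM21 and TRIM22 are ubiquitin ligases. TRIM21, the cytosolic antibody receptor, lies at chr11:4384897-4393702 on the minus strand and was at 10.7, 12.8, 10.1 and 4.61 in controls 1 to 4 and at 13, 20, 16.3 and 11.5 in hLcn-2 samples 1 to 4. The groups overlapped between control 2 and hLcn-2 4, and hLcn-2 was higher in 4 of 4 pairs. Means were 9.53 ± 3.48 and 15.2 ± 3.77 (SD, n = 4 each), and the log2 fold change of 0.67 ± 0.29 (SE) had an unadjusted p of 0.0396 without and 0.00199 with the block in limma, an adjusted p of 0.133 with it and of 0.073 in edgeR with it. Control 4 held only 7 reads of TRIM21, and without it the log2 fold change was 0.39. SP100 was at 169, 179.7, 176 and 136 in controls 1 to 4 and at 194, 198, 179 and 162 in hLcn-2 samples, above its own control in each of the 4 pairs. The log2 fold change of SP100 was 0.15 ± 0.13 (SE). SP110 had means of 30.6 and 26.2, and TRIM22 stayed between 0.652 and 3.74.

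GBP proteins are interferon gamma-induced GTPases that coat intracellular bacteria and vacuoles, and the 3 GBP genes of the list, neighbours on chromosome 1, all had lower means in hLcn-2 samples. GBP2, at chr1:89106132-89150456, was at 63, 46.8, 70.3 and 61.2 in controls 1 to 4 and at 57.2, 34.1, 48.4 and 47.4 in hLcn-2 samples 1 to 4. Control 2 stood within the hLcn-2 range, and each hLcn-2 sample was below its own control. Means were 60.3 ± 9.84 and 46.8 ± 9.53 (SD, n = 4 each), a log2 fold change of -0.37 with an SE of 0.18 without and 0.10 with the block. The unadjusted p was 0.068 without and 0.00286 with the block in limma, and the adjusted p with the block was 0.154. GBP3, at chr1:89006679-89022894, was at 48.3, 51.8, 33.5 and 55.3 in controls and at 40.2, 45.2, 18.3 and 47 in hLcn-2 samples, lower in 4 of 4 pairs and lowest in number 3 of both groups. Its log2 fold change was -0.38 ± 0.28 (SE), with an unadjusted p of 0.00862 and an adjusted p of 0.230 in limma with the block, and without hLcn-2 3 it was -0.08. GBP1 was at 64.3, 73.4, 53.2 and 79 in controls and at 64.6, 67.9, 41 and 69.2 in hLcn-2 samples, with a log2 fold change of -0.17 ± 0.19 (SE). The 3 genes are close in sequence, so tags may be shared between them, and GBP4, a neighbour from the wider list, had means of 13.9 and 12.1.

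By pair, 5 of the 43 genes were higher in hLcn-2 in 4 of 4 pairs (11.6%, beside 9.93% of all genes) and 5 were lower in 4 of 4 (11.6%, beside 10.9%). The higher ones were SLFN5, TRIM21, IRF1, SP100 and IFIT5, and the lower ones GBP2, GBP3, SAMD9, IFIH1 and ISG15. The 43 genes thus kept 1 direction in all pairs about as often as genes in general. They differed in how the 4 pairs compared. In pair 1, 31 of the 43 were higher in hLcn-2, with a median log2 difference of 0.18, while the median of all genes was -0.02. In pair 2, 19 were higher (median -0.03, all genes 0.01), in pair 3, 12 (median -0.18, all genes -0.05) and in pair 4, 15 (median -0.13, all genes 0.04). Of the 43 genes, 19 (44.2%) were higher in pair 1 and lower in both pairs 3 and 4, a pattern chosen after the values were seen, which 11.1% of all genes showed. The opposite pattern was seen in 2 of 43 (4.65%), ADAR and IFI35, and in 10.8% of all genes. The 19 include IFIT1, MX1, the OAS genes other than OAS3, IFI6, IFI44, IFI44L, PARP9, DTX3L, STAT2 and DDX58. The OAS genes had median differences of 0.24, -0.13, -0.42 and -0.50 in pairs 1 to 4, and the IFIT genes of 0.39, 0.00, -0.09 and 0.09. The OAS medians in pairs 3 and 4 lean on OAS2 (-0.77 and -1.21) and OASL (-1.72 and -0.74), which rest on few reads. In the same pairs OAS1 was at -0.07 and -0.17 and OAS3 at 0.15 and -0.26. A group has 1 sample per pair, so the difference between pairs has no replicate and was not tested.

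**Figure D4:**
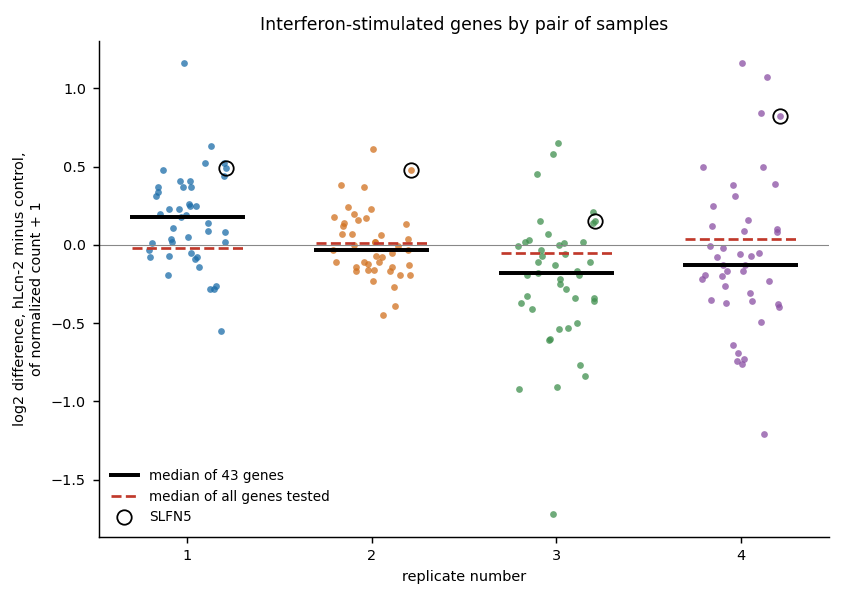
Log2 difference of normalized count + 1, hLcn-2 minus control, of the 43 interferon-stimulated genes in each of the 4 pairs of samples. Black bars are the medians of the 43 genes (0.18, -0.03, -0.18 and -0.13), dashed bars the medians of all genes tested, and circles mark SLFN5, which is above 0 in each pair.

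Leaving out both samples of number 1, limma with the block gave an unadjusted p under 0.05 for 12 of 43 (27.9%, beside 9.33% of all genes), of which 9 were lower in hLcn-2, namely IFIT1, IFI44, MX1, OAS2, OASL, DDX58, SLFN12, GBP2 and GBP3 (20.9%, beside 4.22% of all genes). The other 3, SLFN5, TRIM21 and IRF1, were higher (6.98%, beside 5.11%). No adjusted p was under 0.05, and the median log2 fold change of the 43 genes was then -0.083. Pair 1 was already seen to be the pair in which most members were higher in hLcn-2. The larger count without it therefore restates that pattern and is not separate evidence for it. Of the genes lower in this fit, OAS2 and OASL rest on few reads. Leaving out number 2 gave 5 of 43 (beside 8.55%), number 3 gave 4 (beside 10.4%) and number 4 gave 6 (beside 13.9%). SLFN5, TRIM21 and GBP2 were among them in each of the 4 fits. Depth moved with the number: the samples of number 1 held 13953090 and 11341137 reads, those of number 2 held 12634366 and 6972124, those of number 3 held 5799151 and 2088266, and those of number 4 held 1501563 and 4619920. The part of depth in the difference between pairs was not tested.

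Samples of different numbers differed from each other. With treatment as a term, the F test of limma for the replicate number passed an adjusted p of 0.05 for 14 of 43 genes (32.6%), beside 27.4% of all genes, and for 3 of 43 (6.98%, beside 8.3%) when no intensity trend was fitted. The 14 were IFI6, IFI27, IFI44L, ISG15, HERC5, OAS3, GBP1, GBP2, GBP3, IRF1, SLFN12, SAMHD1, TRIM21 and TRIM22. They did not follow 1 order: number 3 was highest for IFI27 and IFI44L and lowest for OAS3 and GBP3, and number 4 was highest for ISG15. Over the 43 genes, hLcn-2 1 held the highest value for 14 and control 4 for 11, and hLcn-2 3 held the lowest for 13 and hLcn-2 2 for 9. What a number stands for (a day, a passage or a batch) is not given in the labels.

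**Figure D5:**
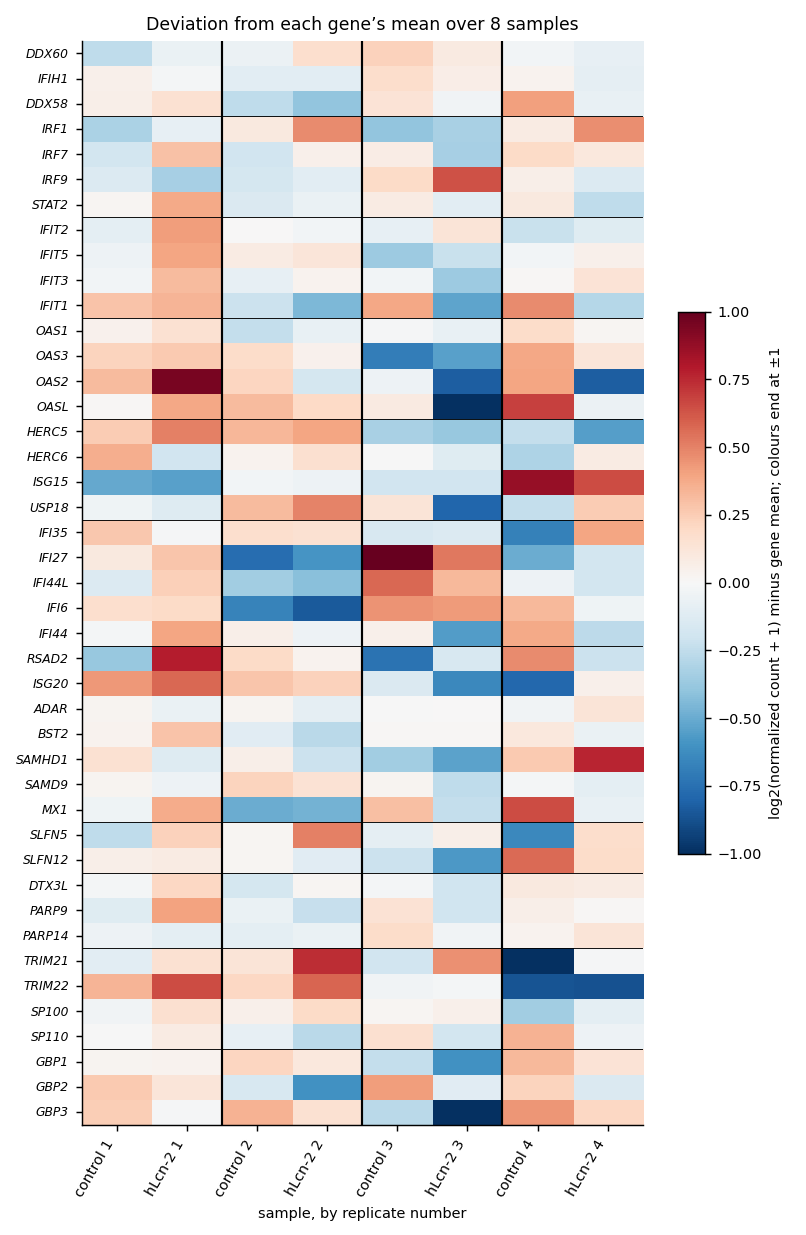
Deviation of log2(normalized count + 1) from each gene’s mean over the 8 samples (colour, ending at ±1), with samples in columns by replicate number and the 43 genes in rows by role. Neighbouring columns of 1 number resemble each other for genes such as IFI27, IFI6 and ISG15, and hLcn-2 1 is red where hLcn-2 3 is blue for genes such as OASL, IFI44 and IFIT1.

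Members with and without an ISRE core in the promoter window were set side by side. The median log2 fold change was -0.021 for the 23 genes with a core, 8 above and 15 below 0, and -0.017 for the 12 measured genes without one, 5 above and 7 below 0. The 8 genes with no entry had a median of -0.012. TRIM21, higher in 4 of 4 pairs, and IFIT1 and GBP3, both lower, each held a core.

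A further 73 names of the interferon system were listed by role to see whether ligands, receptors and signalling genes changed, and 58 of them were above the filter. None of the 58 passed limma without or with the block at an adjusted p of 0.05. EdgeR with the block called 1 of the 58, beside 1.49% of all genes. Their median log2 fold change was 0.026, with 32 above and 26 below 0, and 8 had an unadjusted p under 0.05 in limma with the block, 5 higher and 3 lower, beside the 12.2% of all genes. IFNE was the only 1 of 9 interferons above the filter, at 0.423 to 2.29 normalized counts. The 6 receptor chains all had higher means in hLcn-2 samples, with log2 fold changes of 0.03 to 0.42. IFNGR1, the ligand-binding chain for interferon gamma, was at 21.1, 29.9, 17.3 and 17.1 in controls 1 to 4 and at 26.4, 33.1, 27.6 and 25.7 in hLcn-2 samples, higher in 4 of 4 pairs with an overlap of the groups through control 2, and had an adjusted p of 0.206 in limma with the block. The kinases JAK1, JAK2 and TYK2 and the transcription factor STAT3 had log2 fold changes of -0.12 to -0.01.

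Of the inhibitors, 5 of 6 had log2 fold changes above 0, and SOCS3, which blocks JAK kinases downstream of cytokine receptors, was at 25.8, 24.1, 21 and 15.8 in controls 1 to 4 and at 31.9, 29.2, 30.6 and 22.4 in hLcn-2 samples (log2 fold change 0.39, adjusted p 0.204 in limma with the block). MAVS, the mitochondrial adaptor of the RNA sensors, was lower in 4 of 4 pairs, at 134, 137, 129.7 and 159 in controls and 125, 122, 104 and 138 in hLcn-2 samples (-0.20, adjusted p 0.329). Among further interferon-stimulated genes, PLSCR1, a phospholipid scramblase, was higher in 4 of 4 pairs (means 75.8 and 93.8, adjusted p 0.237) and TNFSF10, the death ligand TRAIL, lower in 4 of 4 (24.0 and 18.9, adjusted p 0.301), both in limma with the block. HELZ2, a nuclear co-activator, had means of 23.6 and 30 and TRIM25, the ligase that activates DDX58, of 121 and 106, with unadjusted p of 0.0302 and 0.0475 in limma with the block. CMPK2, a mitochondrial nucleotide kinase beside RSAD2, was at 0.564, 0.450, 1.23 and 0 in controls and at 4.99, 0.986, 2.47 and 0.435 in hLcn-2 samples, and edgeR with the block gave it an adjusted p of 0.0284, limma with the block 0.241. The reads of CMPK2 numbered 8, 6, 7 and 0 in controls 1 to 4 and 56, 7, 5 and 2 in hLcn-2 samples, so hLcn-2 1 held most of them.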

How the data were processed

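RNA of 4 control and 4 hLcn-2 samples was read by QuantSeq 3′ sequencing with molecular identifiers. Per the labels and methods, the authors aligned reads to GRCh38 with STAR, collapsed identifiers, counted with HTSeq and used edgeR; the strand setting of the counting is not given in the sources used here. The deposited signal is a normalized count, on the CPM scale with a corrected library size. Each value was a whole multiple of the worth of 1 read (100% of 134256 values, within 0.01), so whole reads were recovered by division. One cell with a decimal comma was read as a decimal point.

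The 15593 genes that reached 1 CPM in at least 2 samples were fitted by limma 3.58.1 (R 4.3.3), with log2(normalized count + 1) as the response, an intensity trend and Benjamini-Hochberg adjustment over all of them; called means an adjusted p under 0.05. The study names no block, so the first fit had none. Within groups, deviations of same-numbered samples correlated at 0.48, 0.59, 0.61 and 0.31 across genes, all over 0.1, so a fit with the number as a block was set beside it. Limma had been chosen for normalized values, and edgeR 4.0.16 and DESeq2 1.42.0 were alternatives on the recovered reads. Limma and edgeR without and with the block and DESeq2 without it were tested on simulated counts with known fold changes. No pair of replicates agreed within sampling noise, with chi-square per degree of freedom of 4.9 to 42.84. Other alternatives were pseudocounts of 0.1 and 5, other filters and scalings, no trend, and leaving out samples or pairs.

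The members, their roles and the lists were chosen with earlier results of these data known. Values in all samples are given for SLFN5, SLFN12, the gene with the highest mean in each role, and genes with an unadjusted p under 0.05 in limma without or with the block or with groups that do not overlap. Pathway genes are named by the same rule for p and overlap, SLFN and GBP neighbours beside their members. Coordinates are from GENCODE 44 (GRCh38) and promoters from RefSeq (GRCh38.p14). Intervals cover the spread between samples only.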

Additional observations from a re-analysis of the deposited data

Results flagged for a closer look

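In the 86 groups of 4 samples formed by the 43 genes, 2 samples stood far from the rest of their group. This was judged by the distance to the next sample divided by the whole range of the 4; chance alone would give about 4.3. IFI44 in control 4 stood above the other controls (share 0.831) at 50 normalized counts from 76 reads. GBP1 in hLcn-2 3 stood below the other hLcn-2 samples (share 0.838) at 41.0 normalized counts from 83 reads. Both samples are the shallowest of their group.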

How the results depend on the processing

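The median log2 fold change of the members stayed between -0.083 and 0.01 over 26 alternatives. The count called in limma without the block was 0, and was 1 in edgeR and 1 in DESeq2 with the replicate block (SLFN5) and 0 in the other 24, limma with the block included; the pathway list went from 0 to 1 in edgeR with the block. SLFN5 kept its direction in all 26 alternatives, at 0.35 to 0.60, and passed at 0.49 in edgeR and 0.48 in DESeq2 with the block. Members at an unadjusted p under 0.05, 2 in limma, ranged from 1 to 6 over the fits that leave out 1 sample (1.49% to 4.85% of all genes). With the block they numbered 6 in limma (12.2% of all genes), edgeR (13.4%) and DESeq2 (7.38%), 6 with a pseudocount of 0.1 (11.5%), 5 with no trend (10%), and 12, 5, 4 and 6 without the pair of number 1, 2, 3 or 4 (9.33%, 8.55%, 10.4% and 13.9%). Members differing between numbers went from 14 to 3 without the trend, and all genes from 27.4% to 8.3%. TRIM21, IRF1, SP100, GBP2, GBP3, IFIT1, DDX58 and SLFN12 kept their direction in all 26. Small changes turned sign, and the cause was not tested. ADAR was at 0.00 in edgeR without the block, -0.05 to 0.02 over the fits that leave out 1 sample, and 0.02 with the block without pair 1 or 2. HERC5 was at 0.04 and 0.06 in edgeR without and with the block, 0.03 in DESeq2 either way, -0.18 to 0.17 without 1 sample, and 0.00 and 0.08 with the block without pair 3 or 4. IFI44L was at 0.02 in edgeR with the block, -0.14 to 0.17 without 1 sample, and 0.06 and 0.02 without pair 3 or 4. IFIT3 was at -0.03 to 0.19 without 1 sample and -0.03 without pair 1, OAS3 at -0.29 to 0.12 without 1 sample and 0.02 without pair 4, PARP14 at -0.09 to 0.02 without 1 sample and 0.02 without pair 3, and GBP1 at -0.27 to 0.01 without 1 sample, the last without hLcn-2 3. The replicate block changed no other call. Depth limits OAS2, OASL, RSAD2, TRIM22, IRF9 and USP18, whose values lie near 3 reads in the shallow samples.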
